A study of Mus musculus with 6 samples.

Results

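Interferon-stimulated genes are a set of 35 genes taken by name, of which 33 had a probe set on the array annotated with that gene symbol alone. Each gene was represented by its probe set with the highest mean log2(signal + 16) over all 6 arrays, a choice that did not use the difference between the groups. Isg15 and Ifi44 matched no such probe set and have no value here. Of the 33 genes, 29 were bright enough to be tested among 13262 genes in all, and Mx2, Ifit2, Oasl2 and Cmpk2 were not.

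The arrays (Affymetrix Mouse Genome 430 2.0) measured RNA of dendritic cells grown from bone marrow of C57BL/6 mice with 10 ng/ml GM-CSF, a growth factor that yields dendritic cells and other myeloid cells in culture. On day 6, cells positive for CD11c and MHC II were sorted into Ly6G+ dendritic cells (Ly6G+ DC, 3 arrays) and Ly6G- dendritic cells (Ly6G- DC, 3 arrays). Both groups share the strain, the culture and the sort on CD11c and MHC II, no interferon or other stimulus is named in the labels, and Ly6G is a surface protein typical of neutrophils. Both populations were taken at the same time from shared cultures, per the labels, which do not say how many cultures or mice stand behind the 3 arrays of a group. The p-values therefore reflect the spread among these arrays alone, part of which may be technical.

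Type I interferons bind the receptor made of Ifnar1 and Ifnar2, whose kinases Jak1 and Tyk2 pass the signal on to Stat2. Stat2 acts with Irf9 in the complex ISGF3, which binds the interferon-stimulated response element in promoters and switches on genes that restrict viruses. Myeloid cells keep a low level of such genes without infection, and in dendritic cells the response also supports maturation and antigen presentation.

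The response element is the feature by which ISGF3 reads such genes, so the promoters of 5 members that have one are shown, chosen after their values were seen to span bright and dim genes. They are the bases from 250 before the start site up to it, from RefSeq (build GRCm38.p6), written 5' to 3' on the gene's strand, with each match to the core in capitals. The core was searched as GAAA, any 2 bases and GAAA again, or on the other strand as TTTC, any 2 bases and TTTC again.
Bst2, chr8:71537473-71537722, minus strand: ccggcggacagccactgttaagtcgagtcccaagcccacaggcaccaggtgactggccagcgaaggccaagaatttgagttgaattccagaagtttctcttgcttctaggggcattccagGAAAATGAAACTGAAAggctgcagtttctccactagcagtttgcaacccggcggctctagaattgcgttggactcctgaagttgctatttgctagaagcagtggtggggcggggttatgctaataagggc
Gbp2, chr3:142620413-142620662, plus strand: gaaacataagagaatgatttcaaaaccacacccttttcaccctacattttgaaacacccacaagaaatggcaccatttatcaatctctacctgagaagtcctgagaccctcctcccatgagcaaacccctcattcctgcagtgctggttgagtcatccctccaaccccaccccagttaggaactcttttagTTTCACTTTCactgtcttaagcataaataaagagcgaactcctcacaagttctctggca
Oas1a, chr5:120907526-120907775, minus strand: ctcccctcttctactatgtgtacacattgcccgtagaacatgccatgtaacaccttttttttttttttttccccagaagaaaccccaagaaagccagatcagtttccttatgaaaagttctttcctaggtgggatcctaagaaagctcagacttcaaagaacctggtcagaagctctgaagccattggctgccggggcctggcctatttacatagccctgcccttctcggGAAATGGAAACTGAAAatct
Rsad2, chr12:26456453-26456702, minus strand: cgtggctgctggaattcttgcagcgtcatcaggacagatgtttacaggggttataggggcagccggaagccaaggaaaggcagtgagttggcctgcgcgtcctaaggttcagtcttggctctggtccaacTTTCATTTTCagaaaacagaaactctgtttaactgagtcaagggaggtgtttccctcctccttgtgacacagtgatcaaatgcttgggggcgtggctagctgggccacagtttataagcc
Ifit1, chr19:34640639-34640888, plus strand: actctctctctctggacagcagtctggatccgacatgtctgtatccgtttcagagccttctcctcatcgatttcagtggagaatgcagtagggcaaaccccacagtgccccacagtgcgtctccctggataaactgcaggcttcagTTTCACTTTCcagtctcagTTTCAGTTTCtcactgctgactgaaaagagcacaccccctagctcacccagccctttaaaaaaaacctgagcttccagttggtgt
The match in Bst2 is a pair of overlapping cores that start 130 and 124 bases before the start site, and Oas1a has a like pair at 20 and 14 bases. Gbp2 and Rsad2 have 1 core each, at 59 and 120 bases, and Ifit1 has a core at 104 and another at 85 bases. Of the 35 members 26 were in the promoter table, and 11 of these had a match in at least 1 window, which is 42.3% against 3.46% of all 27025 genes in it. The members with a match were Bst2, Gbp2, Gbp3, Ifit1, Ifit3, Isg15, Oas1a, Oas3, Rsad2, Stat2 and Trim30a. A match is a run of letters and shows no binding.

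None of the interferon-stimulated genes passed the test between the groups. Of the 29 tested, 13 had a positive and 16 a negative log2 fold change, and their median was -0.07 (Ly6G+ over Ly6G-), beside -0.07 over all genes tested. With limma (Benjamini-Hochberg adjustment over all 13262 genes) 0 members passed an adjusted p of 0.05, and their smallest adjusted p was 0.695. That threshold called 0% of all genes. At an unadjusted p under 0.05, 0 members were higher and 3 were lower, namely Mx1, Bst2 and Adar, where the same rule took 3.39% of all genes as higher and 3.51% as lower. Groups without overlap were seen for 0 members in the higher and 3 in the lower direction, namely Mx1, Usp18 and Irf9, against 4.95% and 7.86% of all genes. A negative log2 fold change at any p was found for 55.7% of all genes. These shares are of the genes that passed the filter on low signal. The direction of the nominal count turned with the scaling. With arrays scaled to a common median, 4 members were higher (Ddx58, Zbp1, Isg20 and Rtp4) and 0 lower at an unadjusted p under 0.05, against 7.83% and 0.905% of all genes.

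**Figure D1:**
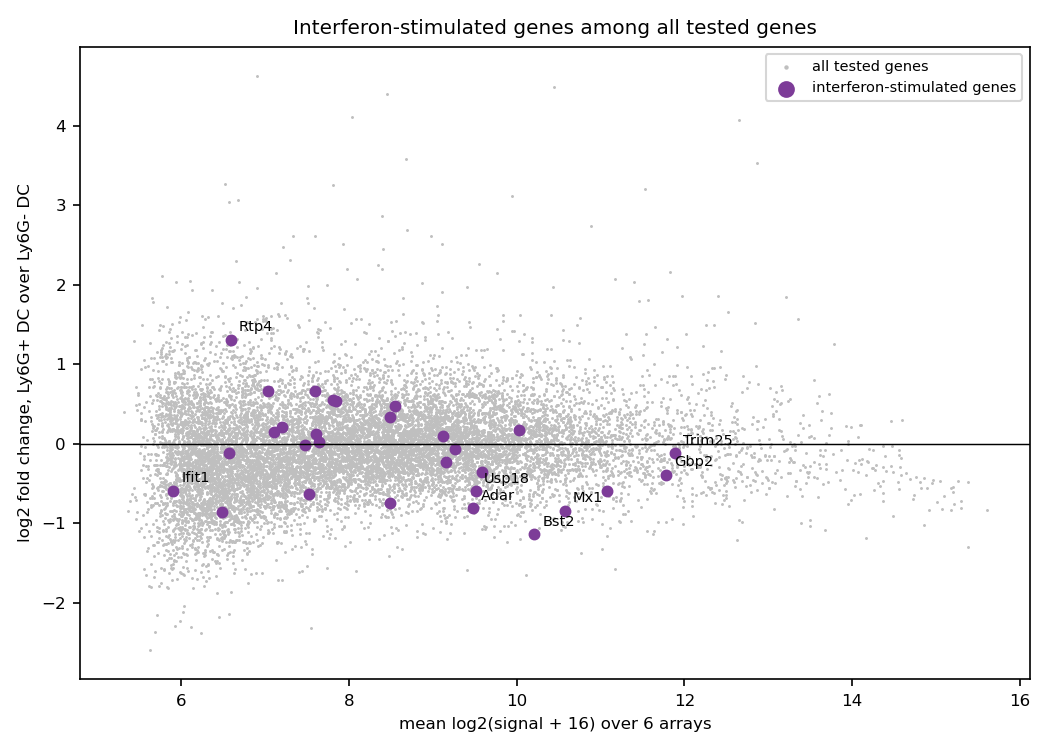
The log2 fold change (Ly6G+ DC over Ly6G- DC) is plotted against the mean log2(signal + 16) over 6 arrays for 13262 genes in grey and the 29 tested interferon-stimulated genes in purple. The members lie on both sides of 0, between -1.14 for Bst2 and 1.31 for Rtp4.

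Itgax, which encodes the sort marker CD11c, ranged from 2728 to 7884 on Ly6G+ and from 5610.2 to 9630.2 on Ly6G- arrays. H2-Ab1, a chain of MHC II, ranged from 10093 to 16313 and from 17389 to 21661. Neutrophil markers separated the groups, with the signals of 14 genes summing to 85811 to 109943 on Ly6G+ and 11131 to 27224 on Ly6G- arrays. All 11 tested markers of conventional dendritic cells had negative log2 fold changes (median -0.93), and their summed signals overlapped, from 35571 to 76541 (sum of 12 genes) against 67715 to 143071. Taken gene by gene, 6 of the 11 were lower without overlap between the groups, against 7.86% of all genes. All 6 tested monocyte markers were positive, with a median of 1.15. Summed markers of eosinophils, basophils and mast cells (7 genes, Fcer1a below the 40th percentile on all arrays) ranged from 1550.2 to 3166 against 902 to 1241. Summed lymphocyte markers (7 genes, Cd3e below it on all arrays) ranged from 650.1 to 1292 against 1601 to 2169. In sorted populations of this kind a different share of cells of a type and a different RNA level per cell cannot be told apart, and the part of these cell types in the values of interferon-stimulated genes was not tested. Arrays also fell into a pair of sides by the brightness of the hybridization controls, RNA spiked in before hybridization: Ly6G+ DC 2, Ly6G- DC 2 and Ly6G- DC 3 had geometric means of 6688 to 12842, and the other 3 arrays 1529 to 2039. On the bright side Actb probe sets at the 3' end read 3.98 to 6.85 times those at the 5' end, against 1.17 to 1.49 times on the dim side. A comparison within a side, as given below, rests on 3 arrays.

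The interferon-stimulated genes spanned a wide range of signal. Trim25 and Gbp2 lay near the 96th percentile of tested genes by mean signal, while Ifit1 lay at the 3.88th. Of the 29 members 9 were above the 75th and 4 below the 25th percentile. Ifit2 and Mx2 were below the 40th percentile of signal on all 6 arrays, with signals of 2.5 to 8.1 and 12.1 to 37.9. Oasl2 and Cmpk2 were above it on 2 arrays each, with signals of 2.9 to 78.9 and 22.2 to 85.2.

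**Figure D2:**
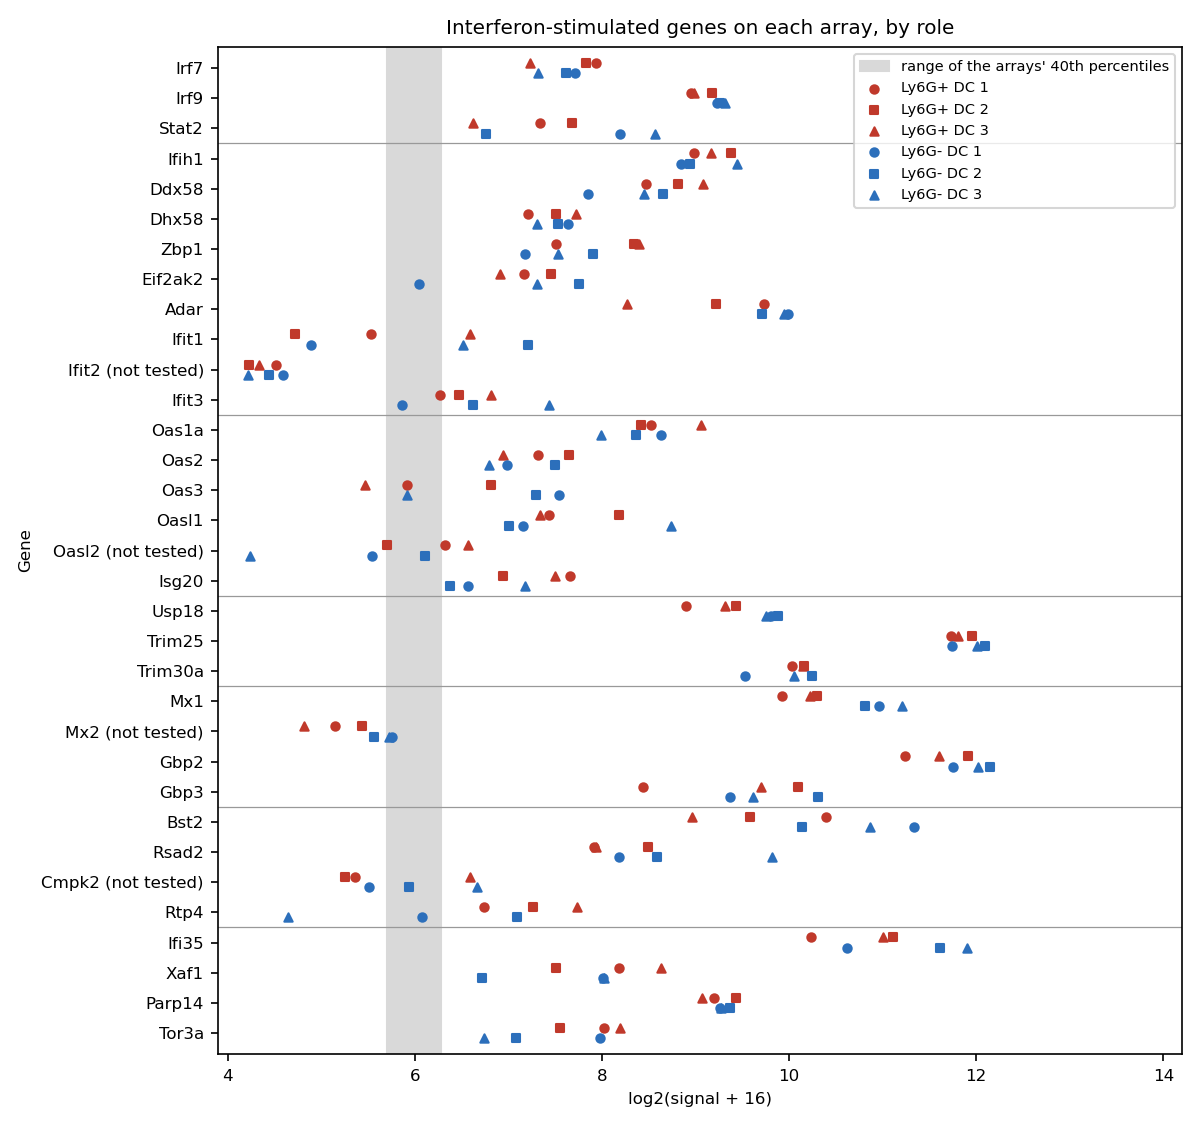
Each point is log2(signal + 16) of a gene on 1 array, for the 33 members with a probe set, in the order of their roles (horizontal lines part the roles), with red for Ly6G+ DC and blue for Ly6G- DC. The grey band spans the 40th percentiles of the 6 arrays, and Mx1, Usp18 and Irf9 are the tested genes whose red points all lie left of the blue ones.

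Among the transcription factors of the response, Irf9, the DNA-binding subunit of ISGF3, had signals of 479, 564 and 489 on Ly6G+ and 585, 597 and 622 on Ly6G- arrays, in numbered order. The groups did not overlap, but the difference was small, with a log2 fold change of -0.23 ± 0.26 (SE, limma, adjusted p = 0.838). With arrays scaled to a common median it was 0.09, so its direction depends on the scaling. Stat2, the partner of Irf9 in ISGF3, had 146, 189 and 82.4 on Ly6G+ arrays against 277, 92.5 and 364 on Ly6G- arrays. Its groups overlapped because Ly6G- DC 2 was low, and the log2 fold change was -0.63 ± 0.49. The other kept probe set of Stat2 had 0.27 ± 0.58. Irf7, which amplifies the production of type I interferon, had 228, 211 and 134 against 193, 180.2 and 143. These values interleaved, with a log2 fold change of 0.12 ± 0.33 (SE).

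The cytosolic RNA sensors Ifih1 (MDA5), Ddx58 (RIG-I) and Dhx58 (LGP2) were present at moderate signal in both groups. Ifih1 had 489, 649 and 557 on Ly6G+ and 444, 475 and 678 on Ly6G- arrays. Ddx58 had 339, 435 and 525 against 214, 386 and 332. Dhx58 had 131, 165 and 195 against 183, 168 and 143. All 3 overlapped between the groups, with log2 fold changes of 0.10 ± 0.29, 0.48 ± 0.32 and -0.02 ± 0.32 (SE). The other kept probe sets of Dhx58 were dimmer and also overlapped, with -0.36 ± 0.42 and -1.21 ± 0.70. A dimmer probe set of Ddx58 did not overlap, with 97.98, 76.8 and 69.8 on Ly6G+ and 15.7, 55.7 and 19.1 on Ly6G- arrays, and those last 3 lay below their arrays' 40th percentiles.

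Zbp1, a sensor of Z-form nucleic acid that can trigger cell death, had 167, 309 and 320 on Ly6G+ and 128, 224 and 169 on Ly6G- arrays. Only Ly6G+ DC 1 lay inside the range of the other group, and the log2 fold change was 0.55 ± 0.36. Eif2ak2 (PKR), the kinase that halts translation on double-stranded RNA, had 128, 160 and 104 against 49.9, 200.5 and 142. Its Ly6G- values enclosed all those of Ly6G+ DC, and the log2 fold change was 0.15 ± 0.47.

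Adar, which edits double-stranded RNA and thereby keeps it from the sensors, had 833, 578 and 291 on Ly6G+ and 998, 822 and 971 on Ly6G- arrays. Ly6G+ DC 1 lay just inside the Ly6G- range and Ly6G+ DC 3 was the lowest. The log2 fold change was -0.81 ± 0.37 (SE, limma, adjusted p = 0.71), and it was -0.41 without Ly6G+ DC 3. Its unadjusted p of 0.0496 (limma) was 0.00892 without Ly6G+ DC 1 and 0.0688 to 0.21 without any other single array. Its other kept probe sets had 0.07 and -0.33.

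The Ifit proteins bind viral RNA that lacks host cap marks, and their genes are among the most responsive to interferon. Here they were dim. Ifit1 had 30.2, 10.4 and 80.2 on Ly6G+ and 13.7, 132 and 75.3 on Ly6G- arrays. Ifit3 had 61.1, 72.5 and 96.7 against 42.1, 82.3 and 156. Both overlapped, and the log2 fold changes of -0.59 ± 0.74 and -0.12 ± 0.49 (SE) were within their errors. Ifit1 had 1.17 within the dim side of the hybridization controls and -2.14 within the bright side. Signals at this level carry little information on direction.

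The oligoadenylate synthetases make the 2'-5' linked messenger that activates RNase L. Oas1a, the brightest, had 352, 326 and 516 on Ly6G+ and 379, 313 and 238 on Ly6G- arrays. Oas2 had 143, 185 and 107 against 111, 165 and 95.1. Neither separated the groups, with log2 fold changes of 0.34 ± 0.31 and 0.21 ± 0.37 (SE). Oas3 had 44.2, 96.1 and 28.3 against 170.5, 140.5 and 44.6. It was above the 40th percentile on 3 arrays, and its log2 fold change of -0.85 ± 0.56 was -1.85 within the dim and 0.20 within the bright side. Oasl1, a relative that restrains translation of Irf7, had 157, 275 and 146 against 126, 112 and 412. Its highest and its lowest value both came from Ly6G- arrays, with a log2 fold change of 0.02 ± 0.48. Isg20, an exonuclease of single-stranded RNA, had 186, 107 and 164 against 79.2, 66.8 and 128, with a log2 fold change of 0.66 ± 0.39. The Ly6G+ values were mostly the higher ones, with Ly6G- DC 3 above Ly6G+ DC 2.

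Usp18, which removes the ubiquitin-like protein Isg15 from targets and blocks signalling at the Ifnar2 receptor chain, had 462, 675 and 619 on Ly6G+ and 879, 924 and 845 on Ly6G- arrays. Every Ly6G+ array was lower than every Ly6G- array. The log2 fold change was -0.60 ± 0.27 (SE) with an unadjusted p of 0.0508 (limma, adjusted p = 0.71), and -0.70 and -0.38 within the dim and bright sides. Scaled to a common median it was -0.27. The ubiquitin ligase Trim25, which activates RIG-I, had 3375, 3951 and 3551 against 3400.5, 4358 and 4092. The values interleaved and the log2 fold change was -0.12 ± 0.28 (SE), while the other kept probe sets of Trim25 had 0.48 and 0.29. Trim30a, a restrainer of inflammatory signalling, had 1028, 1128 and 1121 against 722, 1199 and 1043, with a log2 fold change of 0.17 ± 0.28.

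Mx1 had the smallest p of the members. This dynamin-like GTPase blocks influenza viruses in mice with an intact gene, and laboratory strains such as C57BL/6 carry a deletion that ends this function. Where the probe set lies relative to that deletion is not given in the sources used here. Signals were 954, 1244 and 1184 on Ly6G+ arrays and 1976, 1777 and 2349 on Ly6G- arrays, or 1127 ± 153 against 2034 ± 290.5 (SD, n = 3). All 3 Ly6G+ arrays lay below all 3 Ly6G- arrays, and hence by necessity also within each side of the hybridization controls. The log2 fold change was -0.84 ± 0.27 (SE) with an unadjusted p of 0.0105 (limma, adjusted p = 0.695). It was -0.89 and -0.71 within the dim and bright sides and ranged from -0.93 to -0.73 when 1 array at a time was left out. Scaled to a common median it was -0.51 with an unadjusted p of 0.147, so that scaling ends the nominal call by limma. Mx2, the related GTPase, had 19.5, 27.4 and 12.1 against 37.9, 31.1 and 36.7, all below the 40th percentile and thus without a test.

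The guanylate-binding proteins coat the vacuoles of intracellular pathogens. Gbp2 had 2406, 3837 and 3104 on Ly6G+ and 3443, 4534 and 4129 on Ly6G- arrays. Gbp3 had 330, 1080.1 and 818 against 647, 1248 and 768. Both overlapped, with log2 fold changes of -0.39 ± 0.30 and -0.35 ± 0.43 (SE), and Gbp3 was lowest on Ly6G+ DC 1. The probe set used for Gbp2 is of a class that can bind related transcripts (suffix x), and its other probe set had -0.10 ± 0.30.

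Bst2 (tetherin), which holds budding virus at the cell surface and in mice also marks plasmacytoid dendritic cells, had the largest negative difference of the tested members. Signals were 1326, 752 and 481 on Ly6G+ and 2566, 1111 and 1855 on Ly6G- arrays, or 853 ± 431 against 1844 ± 728 (SD, n = 3). The groups overlapped through Ly6G+ DC 1 and Ly6G- DC 2, which lie on different sides of the hybridization controls. Within either side every Ly6G+ array was lower than every Ly6G- array, with log2 fold changes of -1.66 on the dim and -0.92 on the bright side. Over all arrays the log2 fold change was -1.14 ± 0.42 (SE) with an unadjusted p of 0.0197 (limma, adjusted p = 0.705). With the side as a block it was -1.29 ± 0.39 (limma, adjusted p = 0.576). Without Ly6G+ DC 3 it was -0.79 with an unadjusted p of 0.1 (limma), without Ly6G- DC 1 or Ly6G- DC 3 the unadjusted p was 0.0519 or 0.0508, and scaled to a common median it was -0.81 with an unadjusted p of 0.0877. All 9 tested markers of plasmacytoid dendritic cells had negative log2 fold changes, with summed signals of 1806 to 3083 on Ly6G+ and 3466 to 4417 on Ly6G- arrays. Of these only Spib had an unadjusted p under 0.05 (-1.20 ± 0.34, SE) and groups without overlap, and the separation of the sums rests on it. Its signals were 877, 834 and 430 on Ly6G+ and 1901, 1265 and 1662 on Ly6G- arrays. Siglech, a defining marker, had -0.04 ± 0.47 and signals of 52.5 to 157 over both groups. The part of such cells in the Bst2 values was not tested.

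Rsad2 (viperin) makes a chain-terminating nucleotide that stops viral polymerases, and Cmpk2, its genomic neighbour, supplies the precursor. Rsad2 had 226, 344 and 229 on Ly6G+ and 275, 368 and 884 on Ly6G- arrays. Ly6G- DC 3 stood well above the rest, and the log2 fold change of -0.75 ± 0.42 (SE) was -0.27 without that array. The other kept probe sets of Rsad2 were dimmer. One overlapped, with 110, 140 and 110 against 104, 117 and 369, again highest on Ly6G- DC 3, and a log2 difference of -0.44 ± 0.47. The dimmest did not overlap, with 43.1, 55.7 and 77.4 against 137, 176 and 128, and a log2 difference of -1.14 ± 0.40. Rtp4, a chaperone of membrane receptors that binds viral RNA, had the largest positive difference, with 90.8, 138 and 197 against 51.4, 121 and 8.9. It was dim, only 4 arrays were above their 40th percentile, and the groups overlapped through Ly6G- DC 2. The log2 fold change was 1.31 ± 0.61 (limma, adjusted p = 0.71), and it was 0.66 without Ly6G- DC 3.

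Ifi35, a partner of Nmi in inflammatory signalling, had 1186, 2192 and 2041 on Ly6G+ and 1553, 3120 and 3801 on Ly6G- arrays, with a log2 fold change of -0.59 ± 0.39 (SE). The log2 fold change was -0.65 within the bright side and 0.0032 within the dim side. Ly6G+ was lower than Ly6G- for each array number, and the unadjusted p of 0.156 was 0.0146 when limma blocked on the array name. Parp14, an ADP-ribosyltransferase, was nearly level, with 570, 673 and 522 against 597, 647 and 601 and a log2 fold change of -0.07 ± 0.26. Xaf1, an antagonist of the apoptosis inhibitor Xiap, had 275, 166 and 381 against 241, 89.0 and 243, and Tor3a, an ATPase of the torsin family, had 243, 172 and 276 against 235, 119 and 90.4. Both overlapped, with 0.53 ± 0.44 and 0.66 ± 0.39, and the other kept probe sets of Tor3a had -0.39 and -0.52.

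**Figure D3:**
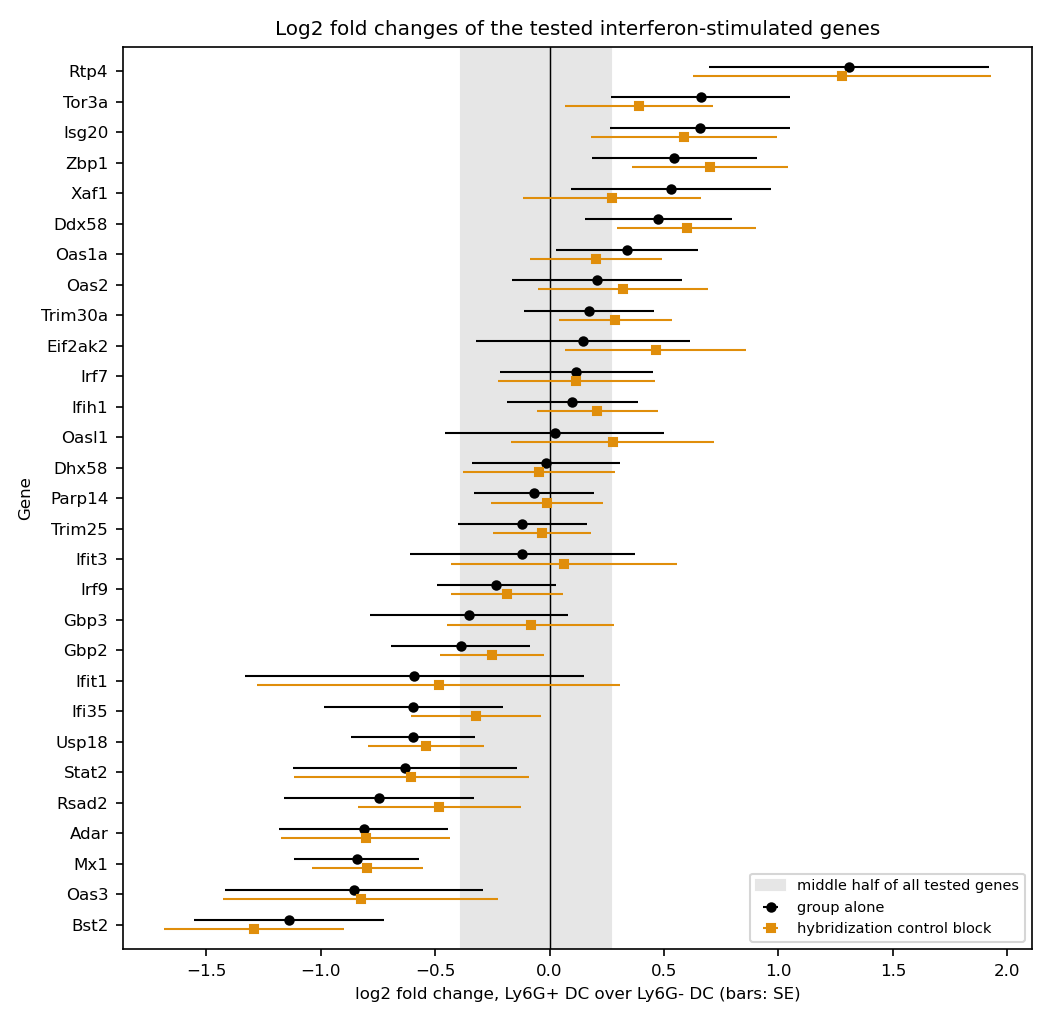
Log2 fold changes (Ly6G+ DC over Ly6G- DC) of the 29 tested genes with SE bars, for the fit of the group alone (black) and for the fit that also blocks on the side of the hybridization controls (orange). The grey band is the interquartile range of all tested genes, from -0.39 to 0.27, so lying outside it is not unusual for a gene. The same range of the 29 members was -0.59 to 0.21. Members lie outside the band on both sides, from Bst2 at -1.14 to Rtp4 at 1.31.

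Of the 29 members, 8 had their highest signal on Ly6G- DC 3, as did 25.01% of all genes, and 4 their lowest, among them Rtp4 and Oas1a, as did 19.9% of all genes. Ly6G+ DC 1 was lowest for 9, against 16.1% of all genes. The mean of the members per array, with each gene centred on its mean over the arrays, was -0.16, 0.06 and -0.04 on the Ly6G+ and -0.09, 0.10 and 0.14 on the Ly6G- arrays. The group means were -0.05 ± 0.11 and 0.05 ± 0.12 (SD, n = 3), so the arrays of the groups interleaved, and the lowest mean of each group belonged to its array 1. For 18 of the 29 members the sign of the difference was the same within both sides of the hybridization controls, 7 of them negative and 11 positive. The negative ones were Mx1, Bst2, Adar, Usp18, Irf9, Gbp2 and Rsad2. The positive ones were Ifih1, Ddx58, Zbp1, Oas1a, Oas2, Oasl1, Isg20, Trim30a, Rtp4, Xaf1 and Tor3a. Agreement of sign between the sides was not counted over all genes, so no share stands beside it. The median of the members was 0.03 on the dim and 0.09 on the bright side. With that side as a block in limma, 0 members passed an adjusted p of 0.05, against 0.0679% of all genes. At an unadjusted p under 0.05 that fit had 0 members higher and 2 lower, Mx1 and Bst2, against 3.77% and 3.6% of all genes. The labels also give an array name, which is one for the arrays numbered 1 and another for the rest. With it as a block in limma, 0 members passed an adjusted p of 0.05 (smallest 0.145), against 0.143% of all genes. At an unadjusted p under 0.05 that fit had 0 members higher and 5 lower (Adar, Usp18, Mx1, Bst2 and Ifi35), against 6.15% and 5.99% of all genes.

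Several members have more than 1 probe set, which gives a second reading of the same samples. Of 14 members with several kept probe sets, the signs of the differences agreed for 8 and differed for 6, namely Adar, Eif2ak2, Stat2, Tor3a, Trim25 and Xaf1. Mx1, Bst2, Usp18 and Irf9 have 1 probe set each, so no such reading exists for them.

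**Figure D4:**
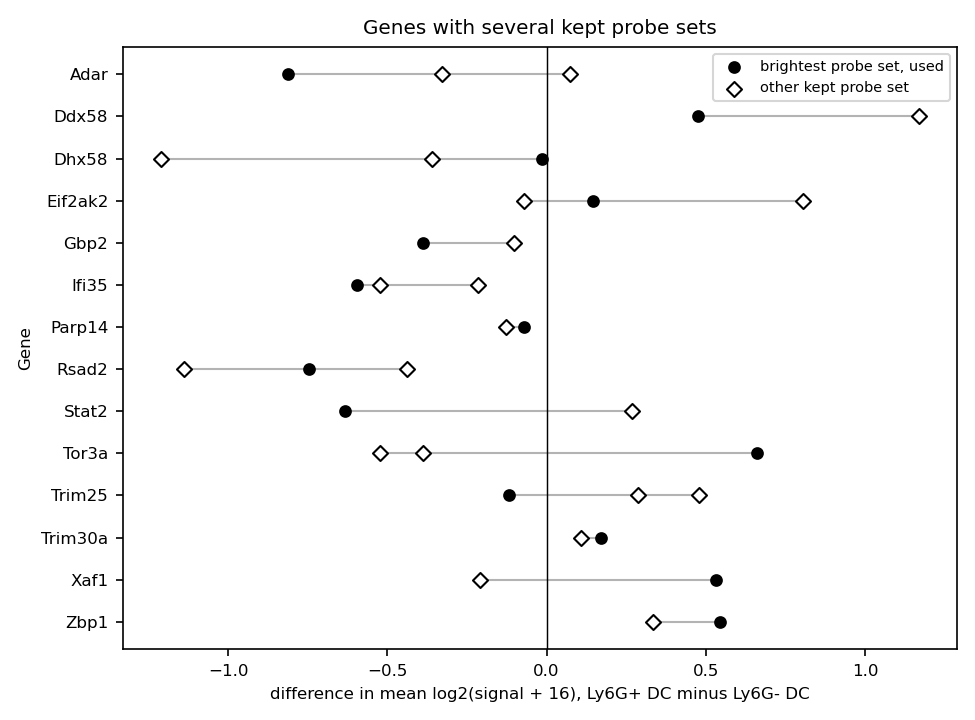
Each row is a gene with several kept probe sets, with the difference in mean log2(signal + 16) between the groups for the brightest probe set (filled circle) and the others (open diamonds). The symbols lie on both sides of 0 for 6 of the 14 genes.

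Tested members in the promoter table were set side by side by whether any of their windows held a response element match, a split made after the values were seen. The other 8 tested members, Mx1, Usp18 and Rtp4 among them, are not in that table and are in neither group. Of the 10 tested members with a match 8 had a negative log2 fold change, with a median of -0.49 and a range of -1.14 (Bst2) to 0.34 (Oas1a). Of the 11 tested without a match 4 were negative, with a median of 0.10 and a range of -0.81 (Adar) to 0.66 (Isg20). The ranges overlapped widely and no test was made of this split.

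The genes upstream of the response were read from lists assembled for this purpose. Of 19 interferon genes 10 were on the array under 1 symbol and 3 were tested, Ifna1, Ifnb1 and Ifnz, with 0 at an unadjusted p under 0.05. Ifnb1, the first interferon made on viral sensing, had 56.3, 118 and 79.7 on Ly6G+ and 91.9, 49.8 and 114 on Ly6G- arrays, without a group difference that its spread could show. Of the 10, Ifna2, Ifna4, Ifna9 and Ifng were below the 40th percentile on all arrays. Of 10 receptor and signal transducer genes tested, 2 were higher and 0 lower at an unadjusted p under 0.05, and 0 at an adjusted p under 0.05. The unadjusted threshold took 3.39% of all genes as higher and 3.51% as lower. The higher receptor and transducer genes were the kinase Jak1 (0.81 ± 0.35, SE) and Il10rb (0.76 ± 0.33), a chain of the interferon lambda and interleukin 10 receptors. Both overlapped between the groups, and both had 0.54 with the side of the hybridization controls as a block. The kinase Tyk2 had -0.51 ± 0.29. Groups without overlap were seen for Ifngr1 (0.47 ± 0.28) and Jak2 (-0.61 ± 0.32), 1 higher and 1 lower gene, against 4.95% and 7.86% of all genes. Of the 10 genes 7 were positive and 3 negative, where 55.7% of all genes were negative. The receptor chains Ifnar1 and Ifnar2 had -0.12 ± 0.26 and 0.68 ± 0.44. With the side of the hybridization controls as a block they had -0.12 ± 0.24 and 0.28 ± 0.24, and the list median of 0.46 was 0.09. Of 13 negative regulators Ptpn6 (SHP-1), a phosphatase of myeloid cells, was higher at an unadjusted p under 0.05 (1.04 ± 0.40) and 0 were lower.

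Of 17 genes that sense infection and induce interferon, 2 were higher at an unadjusted p under 0.05, and 0 lower, against 3.39% and 3.51% of all genes. Tlr7, the endosomal receptor of single-stranded RNA, had 243, 151 and 284 on Ly6G+ and 111, 33.3 and 56.9 on Ly6G- arrays, with a log2 fold change of 1.61 ± 0.44 (SE). Only 4 arrays were above their 40th percentile for Tlr7, and Ly6G- DC 2 and Ly6G- DC 3 were below it. Tlr4, the lipopolysaccharide receptor, had 633, 582 and 1045 against 514, 303 and 243, with 1.08 ± 0.35. The groups did not overlap for either gene. The other 14 of 17 genes besides these and the kinase Ikbke (0.77 ± 0.35) were negative, where 55.7% of all genes were. Most of the 14 values were smaller than their SE, such as Mavs (-0.03 ± 0.28) and Tbk1 (-0.15 ± 0.36). The median of the list was -0.20.

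Of 46 tested other genes induced by type I interferon, 3 were higher and 1 lower at an unadjusted p under 0.05. That rule took 3.39% of all genes as higher and 3.51% as lower. At an adjusted p under 0.05 there were 0. Groups without overlap were seen for 7 higher and 3 lower genes of the list, against 4.95% and 7.86% of all genes. The median was 0.19, and it was 0.09 with the side of the hybridization controls as a block. Of the list 31 genes were positive and 15 negative, where 55.7% of all genes were negative. Slfn4, a schlafen of myeloid cells, had 384, 281 and 902 on Ly6G+ and 23.2, 146 and 59.9 on Ly6G- arrays, with a log2 fold change of 2.61 ± 0.55 (SE, limma, adjusted p = 0.367). It was above the 40th percentile on 4 arrays, and Ly6G- DC 1 and Ly6G- DC 3 were below it, so the size of its fold change rests in part on dim signals. Samd9l, a restrainer of translation and of growth factor signalling, had 2281, 1593 and 3664 against 1238, 1119 and 311, with 1.62 ± 0.50. Slfn1 had 1.45 ± 0.62 with overlap between the groups. Helz2, a helicase, was the lower one, with 1404, 2104 and 2064 against 2458, 3078 and 5070.5 and a log2 fold change of -0.88 ± 0.34.

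Of 24 tested genes induced by interferon gamma 1 was higher and 1 lower at an unadjusted p under 0.05, against 3.39% and 3.51% of all genes. After adjustment 0 passed. Cxcl10, a chemokine that draws activated T cells, had 281, 294 and 287 on Ly6G+ and 184, 137 and 142 on Ly6G- arrays, with a log2 fold change of 0.84 ± 0.30 (SE). Iigp1, a GTPase that attacks parasite vacuoles, had 78.3, 125 and 67.7 against 211, 126 and 200.5, with -0.88 ± 0.38. Neither overlapped between the groups, although Ly6G+ DC 2 and Ly6G- DC 2 were close for Iigp1. The median of the list was -0.19.

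**Figure D5:**
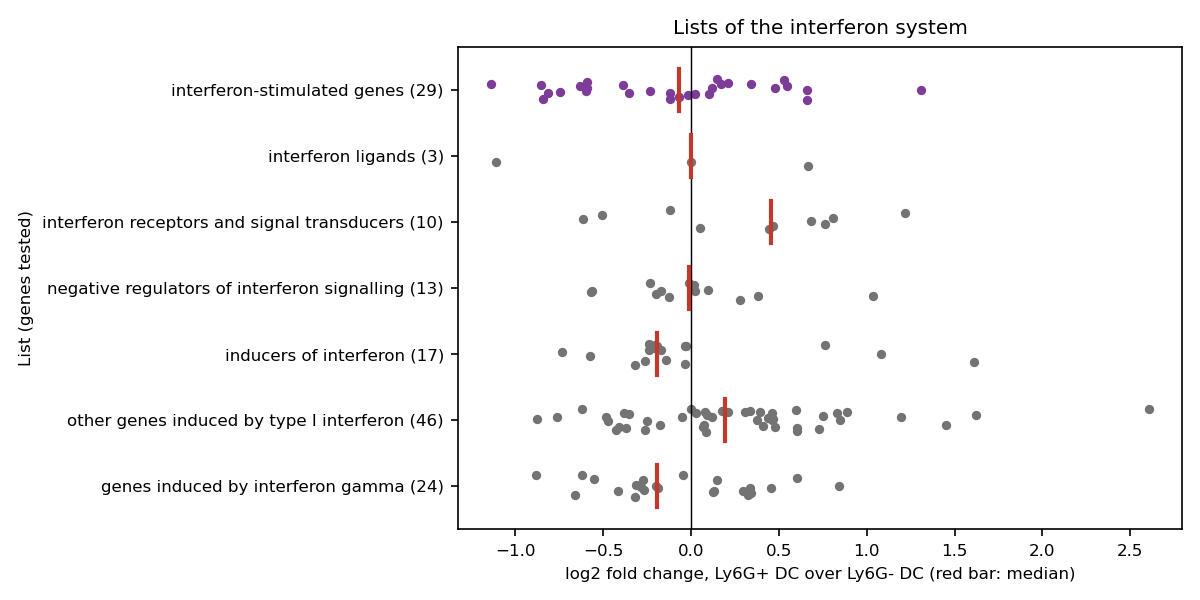
Log2 fold changes (Ly6G+ DC over Ly6G- DC) of the tested genes of 7 lists, with a point for each gene (spread vertically for sight only) and a red bar for the median. The medians, from the fit of the group alone, lie between -0.20 for inducers and 0.46 for receptors and signal transducers. The 29 interferon-stimulated genes had -0.07. With the side of the hybridization controls as a block these medians were -0.08, 0.09 and -0.01.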

How the data were processed

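RNA of sorted Ly6G+ and Ly6G- dendritic cells was measured on 6 Affymetrix arrays, amplified from 200 ng of total RNA with an oligo-dT primer, per the labels' protocols. The deposited values are linear signal intensities per probe set, which the authors scaled so that each array's mean after trimming 2% at either end is 250.0. Expression Console 2.0, MAS5 and GCOS are the tools listed in the submitters' processing notes, whose further settings are not given in the sources used here. This method leaves dim probe sets noisy. The brightest 2% do not enter the scaling, and among the rest bright probe sets weigh more in a linear mean than dim ones.

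Of 45101 probe sets, 34958 had 1 symbol in the platform annotation, 932 several and 9211 none. All 35 member symbols are in RefSeq (GRCm38.p6). A probe set was kept if above its array's 40th percentile on at least 3 arrays (28254, without 64 controls), and a gene was its brightest kept probe set. Groups were compared on log2(signal + 16), a pseudocount that understates fold changes of dim genes, with limma 3.58.1 in R 4.3.3 (eBayes with intensity trend, group alone) and Benjamini-Hochberg adjustment over 13262 genes; the script was tested on simulated data. The number of arrays limits the precision. Arrays with the same number in both groups were not treated as pairs in the main fit, since the labels do not tie a number to a culture. Their deviations correlated at 0.50, 0.22 and -0.05, and the arrays numbered 3 lie on different sides of the hybridization controls. A fit with the number as a block is given below. Alternatives were blocks, normalization, pseudocount, filter, variance model, averaged probe sets and leaving out each array.

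The members, lists and alternatives were chosen with earlier results of these data known. All members are named; from each pathway list, up to 4 genes with the smallest unadjusted p under 0.05, or else its 2 brightest, and others chosen after their values were seen.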

Additional observations from a re-analysis of the deposited data

How the results depend on the processing

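Of the 29 interferon-stimulated genes, 0 passed an adjusted p of 0.05 by limma under each of the 18 other fits, where 1 to 6 had an unadjusted p under 0.05. That count of 3, all lower, became 5 lower with the array name block and 6 with the replicate block (5 lower, 1 higher). It was 5 with quantile normalization (4 lower, 1 higher) and 6 with the mean of kept probe sets (4 lower, 2 higher). A common median gave 4 (0 lower, 4 higher). Over all 13262 genes the same threshold took 450 as higher and 465 as lower in the main fit. It took 815 and 794 with the array name block, 812 and 759 with the replicate block, and 487 and 377 with quantile normalization. With the mean of kept probe sets it took 465 and 524, and with a common median 1039 and 120. The count of members was 1 to 4 when an array was left out, the lowest without Ly6G+ DC 3 (Mx1 alone). That last fit took 182 of all genes as higher and 193 as lower. Both populations came from shared cultures, but the labels do not tie a number to a culture. The replicate block, with 20 calls over all genes, is therefore given only here. The same-number correlation was -0.05 for number 3, whose arrays lie on different sides of the hybridization controls. The members' median log2 fold change of -0.07 was 0.25 with a common median, a scaling that moved the median of all genes by 0.30 and the share of negative genes from 55.7% to 31.2%, with 11 negative members. It was 0.085 within the bright side of the hybridization controls and -0.22 to 0.0058 when an array was left out, the lowest without Ly6G- DC 1. Of the 29 members 13 kept 1 sign in every setting that gave them a value, a count that was not made over all genes. Of these 6 were negative (Adar, Bst2, Gbp2, Mx1, Rsad2 and Usp18) and 7 positive (Ddx58, Zbp1, Oas1a, Oas2, Isg20, Rtp4 and Xaf1). Over all genes the 0 calls became 9 with the hybridization control block, 19 with the array name block, 2 with quantile normalization, 8 with a common median, 10 with a pseudocount of 64, 1 with no intensity trend and 2 with the mean of kept probe sets, and 0 to 26 when an array was left out (26 without Ly6G- DC 1, 14 without Ly6G- DC 2, 1 without Ly6G+ DC 2). The causes were not tested. Dim members, such as Ifit1, Oas3 and Rtp4, are limited by signal over background.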
